A study of Homo sapiens with 4 samples.

Results

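Distal gained regions were stretches of accessible chromatin away from the outermost start of any gene. They had an ATAC-seq peak in both libraries of HRAS G12V cells and in neither library of the parental cells. In ATAC-seq a transposase cuts and tags DNA wherever it is not packed away, and stretches with many such insertions are called as peaks. MCF10A is a nontransformed, immortalized human mammary epithelial cell line and is the group labelled Parental. The other group, labelled H-RAS Gv12 and termed G12V here, is the same line after lentiviral overexpression of an HRAS oncogene with the G12V change, with a separate GFP vector to follow the transduction and hygromycin to select for the HRAS vector. There were 2 libraries per cell type, and each had its own peak list. The study calls them biological replicates. Whether the G12V libraries came from separate transductions is not given in the sources used here. An empty vector control was not analysed here, so the oncogene, the vectors and the selection cannot be told apart.

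Peaks on chromosomes 1 to 22 and X were merged into 60886 regions wherever they overlapped by at least 1 bp. Of these, 1951 were gained, that is, chosen by the measured peak calls themselves. Leaving out the 251 gained regions that overlapped the promoter window of a protein-coding or lncRNA gene, from 1000 bp before to 500 bp after its transcription start site (TSS), left 1700 distal gained regions, or 3.43% of 49568 distal regions. Each gene had 1 TSS, its outermost annotated start, so regions at other start sites inside a gene count as distal. For comparison, 1183 distal regions (2.39%) were lost, with a peak in both MCF10A lists and in neither G12V list. Another 2390 (4.82%) were shared by all 4 lists, and 705 (1.42%) were crossed, with a peak in 1 list of each cell type under different replicate numbers, so that they followed neither cell type.

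Distal accessible regions are often enhancers, which are short sequences bound by transcription factors that raise the transcription of genes at a distance. RAS proteins pass growth signals to the ERK kinase cascade, which acts on AP-1 and ETS transcription factors, and AP-1 binds enhancers together with factors such as TEAD and RUNX in epithelial cells. CTCF is an architectural protein that anchors chromatin loops and borders, and grainyhead-like factors open enhancers in epithelia. ZEB and SNAI are repressors that bind E-boxes in epithelial genes during epithelial-mesenchymal transition.

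Windows of 150 bp from 7 distal gained regions show what such regions contain (hg19, plus strand, 5′ to 3′). Each window is centred on whichever peak of the region had the better score percentile, and capitals mark the motif match named. The first comes from the top region when ordered by the smaller of the percentiles in both G12V lists, and this window has none of the 14 motifs searched. The next 5 are the best-ranked distal gained regions with a CTCF, AP-1, RUNX, grainyhead or TEAD match, and the last lies in TIMP2, a gene of matrix remodelling described further on.
MGMT-side intergenic region, chr10:130894871-130895020: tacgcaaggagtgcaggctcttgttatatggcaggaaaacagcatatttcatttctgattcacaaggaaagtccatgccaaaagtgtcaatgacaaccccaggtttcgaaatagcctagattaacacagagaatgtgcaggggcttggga
WDPCP intron, CTCF, chr2:63926296-63926445: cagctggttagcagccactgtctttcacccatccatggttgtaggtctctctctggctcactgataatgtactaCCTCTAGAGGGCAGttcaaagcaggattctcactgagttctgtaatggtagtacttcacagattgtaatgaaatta
FBXO38 coding exon, AP-1, chr5:147796616-147796765: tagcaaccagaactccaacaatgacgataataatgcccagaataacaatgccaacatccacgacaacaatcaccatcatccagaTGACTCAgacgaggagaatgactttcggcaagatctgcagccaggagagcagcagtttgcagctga
ESYT2 intron, RUNX, chr7:158533039-158533188: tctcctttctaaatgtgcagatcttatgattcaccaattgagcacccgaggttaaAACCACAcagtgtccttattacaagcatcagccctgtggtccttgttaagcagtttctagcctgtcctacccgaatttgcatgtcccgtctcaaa
ATE1-side intergenic region, grainyhead, chr10:123702445-123702594: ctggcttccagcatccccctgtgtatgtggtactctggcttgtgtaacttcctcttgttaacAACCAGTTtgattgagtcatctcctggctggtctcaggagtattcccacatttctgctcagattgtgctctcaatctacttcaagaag
INSIG1-side lncRNA intron, TEAD, chr7:155061995-155062144: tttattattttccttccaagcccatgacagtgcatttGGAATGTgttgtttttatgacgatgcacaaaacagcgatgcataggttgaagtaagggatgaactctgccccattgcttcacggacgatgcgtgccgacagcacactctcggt
TIMP2 intron, AP-1, chr17:76858381-76858530: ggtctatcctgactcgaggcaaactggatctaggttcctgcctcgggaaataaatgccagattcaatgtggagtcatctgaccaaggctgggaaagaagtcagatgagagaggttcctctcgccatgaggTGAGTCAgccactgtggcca

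The lists differed in length chiefly between replicate numbers. They held 12902 and 34484 peaks in MCF10A and 14057 and 46698 in G12V, replicate 1 first, and 65.9 to 79.0% of the peaks used were distal. Read numbers are unknown from these lists, so the number of peaks stands in for depth, and a locus just under the caller's threshold looks absent. Of 14 basal mammary epithelial marker genes, 3 and 6 had a promoter peak in MCF10A and 0 and 4 in G12V. Of the 19756 protein-coding genes counted for this comparison, 24.4 and 47.8% had one in MCF10A and 26.4 and 50.5% in G12V. KRT5, KRT14 and TP63, which define the basal type, had none in any list at their outermost start. Start sites inside a gene, those of TP63 included, were not looked at for these counts. None of 4 blood and 3 endothelial marker genes had a promoter peak in any list.

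Distal gained regions were mostly modest peaks in the smaller G12V list and stronger ones in the larger. Their MACS score, which is −10 × log10 of the p-value that the caller gave a peak, had a median of 58.6 in G12V replicate 1 (range 40.01 to 147.19) and 80.8 in G12V replicate 2 (range 40.03 to 708.11). As percentiles within each list the medians were 39.6 and 55.9, so the regions lay somewhat below the middle of the first list and above the middle of the second. Both percentiles were at or above 50 in 404 regions (23.8%), and both were under 25 in 102. The regions were 237 to 2227 bp wide with a median of 627 bp, compared with 616 bp for lost, 988.5 bp for shared and 511 bp for all distal regions. These scores chose the regions and are a description only.

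**Figure D1:**
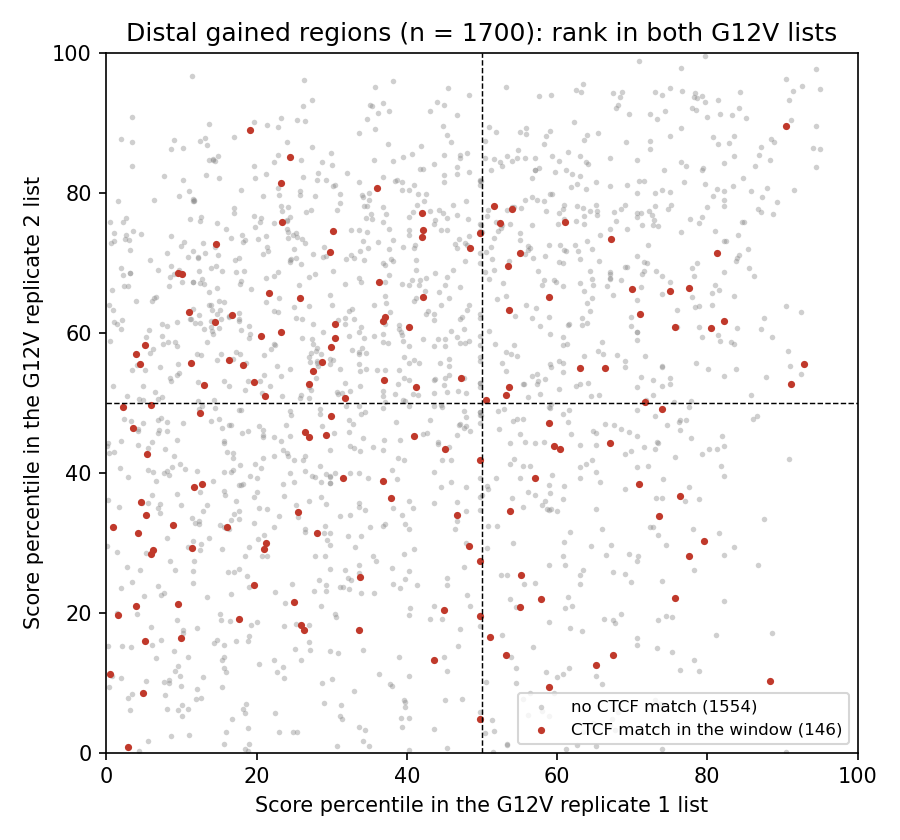
Score percentile of each of the 1700 distal gained regions in the G12V replicate 1 list (horizontal axis, %) and the G12V replicate 2 list (vertical axis, %), 1 point per region, with red points for the 146 regions with a CTCF match in their window. Dashed lines mark the median of each list, and 404 regions lie at or above both.

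The borders of the class were close in places. In G12V replicate 1, 383 distal gained regions scored under 50, against a lowest possible score of 40, and in G12V replicate 2 there were 226 such regions. Just outside the class were 2734 distal regions with a peak in both G12V lists and in 1 MCF10A list. Of these 2558 had it in MCF10A replicate 2 and 176 in replicate 1, with a lowest MCF10A score of 40.08 and a median of 77.17, and 343 scored under 50. A further 19236 distal regions had a peak in G12V replicate 2 alone and 1785 in G12V replicate 1 alone. The number of distal gained regions would be 20963 if G12V replicate 1 were left out, 3596 if G12V replicate 2 were and 4281 if MCF10A replicate 2 were, since fewer lists then have to match. With every list cut to its 12888 best peaks there were 1103, and 425 (25%) of the 1700 were among them. The nearest MCF10A peak was a median of 17755 bp away from a distal gained region, and 119 regions (7%) had one within 1000 bp. At the promoter border, 5 distal gained regions lay within 100 bp of a promoter window, the closest at 37 bp, and 7 gained regions left out overlapped one by 100 bp or less.

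Most distal gained regions lay in introns. Introns of protein-coding genes held 736 (43.3%, 95% Wilson interval 40.96 to 45.7%) and introns of lncRNA genes 253 (14.9%), 611 (35.9%) were intergenic, and 100 (5.88%) were exonic, 21 of them in coding exons. The intron share of 58.2% differed from that of lost regions by -0.319 percentage points, with a 95% Newcombe interval from -3.96 to 3.34 points, and all distal regions had 57.4%. The exon share was near the 6.66% of all distal and the 5.33% of lost regions (difference from lost 0.557 points, interval -1.20 to 2.23). It was lower than the 9.92% of shared regions, with a difference of -4.03 points (interval -5.66 to -2.37). Per library, 56.4 and 57.4% of distal peaks were intronic in MCF10A and 57.1 and 57.5% in G12V, a difference of 0.40 points between the means, and the cell types overlapped (p = 0.667 in an exact permutation test, two-sided, whose smallest possible p with 2 libraries against 2 is 0.333). Wilson and Newcombe intervals here cover counting error over regions only. Regions are not replicates of a condition, and the intervals were not adjusted for their number.

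The median distance to the nearest TSS was 33256 bp, and to the nearest protein-coding TSS 71471 bp. Those of all distal regions were close to these, at 33046.5 and 72093.5 bp. Within 100 kb of a TSS lay 82.2% of distal gained and 78.7% of lost regions, a difference of 3.54 points (interval 0.608 to 6.52). All distal regions had 80.7%, crossed 82.1% and shared 81.9%, so the gained share was not set apart from these. Within 10 kb lay 20.1% of distal gained and 27.9% of crossed regions, a difference of -7.83 points (interval -11.7 to -4.08), while lost regions had 19.4%, shared 21.9% and all distal regions 21.3%. Deserts over 500 kb from any protein-coding TSS held 128 distal gained regions (7.53%), against 10.4% of lost regions (difference -2.87 points, interval -5.07 to -0.763). The share was 8.51% of all distal, 8.23% of crossed and 8.87% of shared regions, and the intervals of the differences from crossed and shared regions held 0.

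The 10 highest-ranked distal gained regions, by the lower of both percentiles, were spread over 7 chromosomes and lay 28372 to 899248 bp from a protein-coding TSS. The first, chr10:130894386-130895594, scored 147.19 in G12V replicate 1 and 311.74 in replicate 2 and was intergenic, 369860 bp from the TSS of MGMT, which encodes a DNA repair enzyme. The second, chr7:158532509-158533645, scored 142.26 and 418.16 and lay in an intron of ESYT2, a tether between the endoplasmic reticulum and the plasma membrane, with a RUNX and a POU match in its window. The third, chr19:31704928-31705637, scored 129.49 and 321.36 in an intron of TSHZ3, a zinc finger transcription factor. Another, chr5:135393049-135394933, was 1885 bp wide and scored 121.28 and 228.2 in an intron of TGFBI, a matrix protein induced by TGF-beta, 28372 bp from its TSS. An intron of WDPCP, a gene of planar cell polarity and cilia, held chr2:63925974-63926750, which scored 118.57 and 219.14 and had the CTCF match printed above without a mismatch. The coding exon of FBXO38, a ubiquitin ligase subunit, held chr5:147796315-147797033, with scores of 120.42 and 274.72 and the AP-1 match printed above. The other 4 lay in an intron of the cell adhesion gene OPCML, in a lncRNA intron on chromosome 11, and between genes nearest to IVNS1ABP and DNAJC10. Of the 10 windows, 5 had none of the motifs searched for.

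Nearest genes were dispersed. The 1700 regions had 1371 different nearest protein-coding genes, of which 1124 were nearest to a single region and 58 to 3 or more. SOX9, a transcription factor of stem and progenitor cells in several epithelia, was nearest to the most, with 6 of the 52 distal regions nearest to it gained, 5 shared and 0 lost. One lay 710.751 kb upstream of SOX9 at chr17:69405836-69406410, with scores of 81.84 and 105.39. The other 5 were downstream, at up to 471567 bp, in introns of the lncRNA genes SOX9-AS1 and LINC00511. The closest, chr17:70147392-70148299, lay at 30.231 kb, scored 48.29 and 173.66 and had an AP-1 and a SOX match, and 3 of the 6 regions had an AP-1 match.

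AGAP1, a regulator of endosomal traffic, was nearest to 5 distal gained regions of 28, with 1 lost and 0 shared. They scored 49.28 to 91.89 in G12V replicate 1 and 67.52 to 135.41 in replicate 2, 4 lay in its introns, 2 had an AP-1 match and 2 a CTCF match. FANCL, a ubiquitin ligase of DNA crosslink repair, had 5 of 25, all between 329.757 and 1060.49 kb away. TENM2, a teneurin of cell adhesion, had 5 of 67, with 3 lost and 5 shared. FAM135B had 5 of 55 and ZHX2, a transcriptional repressor, 5 of 30. Each of 9 further genes had 4, namely TNP1, COL22A1, TMEM132D, BNC2, SPAG16, PLA2G4A, FSTL5, SASH1 and DMAC1. Of the distal regions nearest to each of these, the gained share ran from 10.5% (PLA2G4A, 4 of 38) to 36.4% (SPAG16, 4 of 11). It was 11.5% for SOX9 and 3.43% of all distal regions. The genes were picked by their gained counts, so these shares are a description only. COL22A1, a collagen gene, had 4 of 20, among them the region with the top score in G12V replicate 2 of all distal gained regions, chr8:139965116-139965937, with 91.14 in replicate 1 and 708.11 in replicate 2. BNC2, a zinc finger gene, had 4 of 22, of which chr9:16704508-16705788 scored 79.18 and 529.65. By host gene, introns of AGAP1 and TENM2 held 6 each and those of COL22A1 held 5. Of the 736 regions in introns of protein-coding genes, 531 lay in the gene that also had the nearest protein-coding TSS.

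Genes of matrix remodelling and cell adhesion had distal gained regions nearby more often than protein-coding genes at large. Of 20098 protein-coding genes, 10.3% had a distal gained, 7.03% a lost and 12.7% a shared region within 100 kb of the TSS. In a list of 31 genes for matrix proteases, their inhibitors, matrix proteins and matrix receptors, 16 (51.6%) had a gained, 3 a lost and 10 a shared region. Of the 190 distal regions near these genes, 17 (8.95%, Wilson interval 5.66 to 13.9%) were gained, compared with 3.43% of the 29042 near any protein-coding gene. Genes with more distal regions around them had a gained region more often. The share was 5.61% of all protein-coding genes with 1 to 4 distal regions, 20.9% with 5 to 9 and 39.7% with 10 to 14, and in the matrix list 2 of 7 genes with up to 4, 10 of 18 with 5 to 9 and 4 of 6 with 10 to 14 had one. With every list cut to its 12888 best peaks, 7 of the 31 genes and 5.85% of all protein-coding genes had a gained region, and without G12V replicate 1 it was 27 of the 31 and 65.5%. The lists were drawn up with earlier results of these data known and were given no test.

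**Figure D2:**
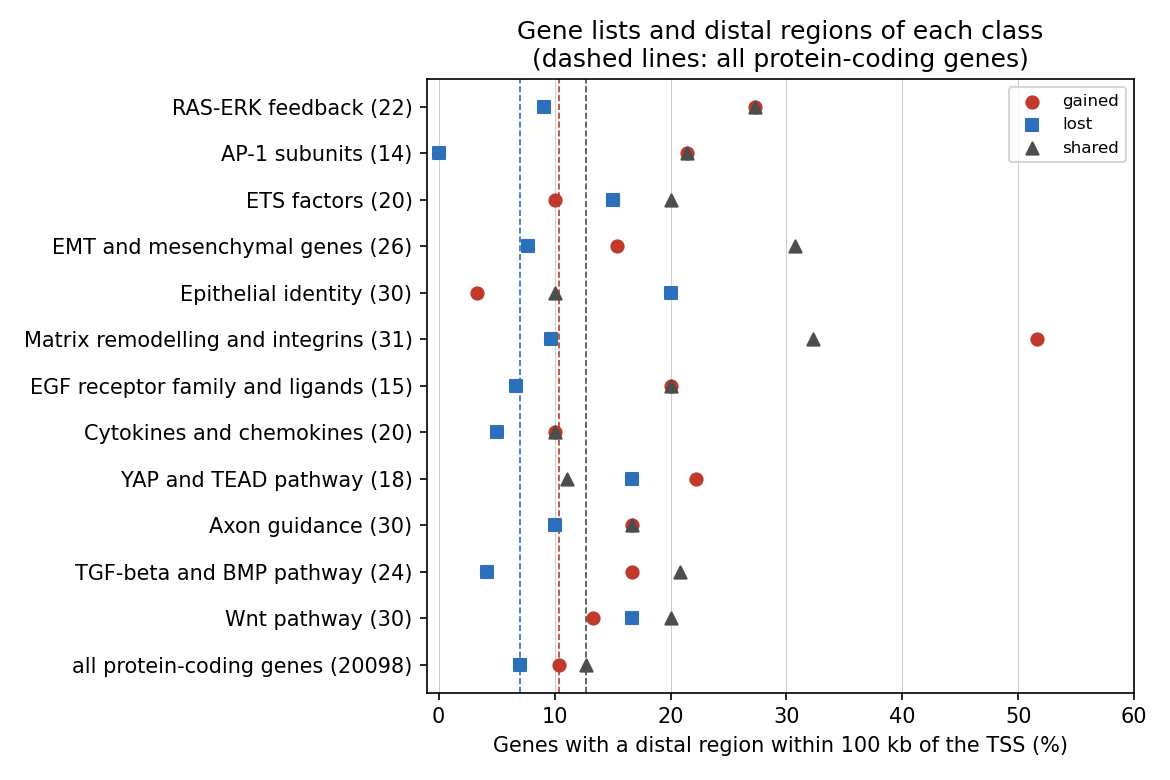
Percent of genes in each list (number of genes in brackets) with a distal gained, lost or shared region within 100 kb of the TSS, with dashed lines for all 20098 protein-coding genes. The matrix list had gained regions near 51.6% of its genes, and the epithelial identity list had them near 3.33%.

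Among the proteases of this list, a single region at chr11:102720140-102720615 served 3 genes, since it lay 5.8 kb upstream of MMP3, 51.249 kb upstream of MMP1 and 68.781 kb upstream of MMP10. These genes encode secreted metalloproteases that degrade collagen and other matrix proteins, and the region scored 55.67 and 51.4. MMP9 had a region 97.549 kb upstream in an intron of PLTP, with scores of 89.19 and 93.87. MMP14, the membrane-bound activator of other metalloproteases, had one 50.234 kb downstream in an exon of REM2, with 56.05 and 47.48. The region near PLAU, which encodes the urokinase protease, lay 20.691 kb upstream and scored 51.93 and 41.47. Those of ADAM19 and ADAMTS1, sheddase and aggrecanase genes, lay within the genes, the first scoring 93.7 and 122.95 and the second 55.72 and 50.55 in a coding exon.

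The inhibitors TIMP1 and TIMP2, which block metalloproteases, also had distal gained regions, while TIMP3 of the same list had none within 100 kb. That of TIMP1 lay 2.284 kb upstream in an intron of SYN1 and scored 41.73 and 62.04. TIMP2 had 2 among only 5 distal regions within 100 kb, with 0 lost and 0 shared. One was 8.048 kb upstream with scores of 48.63 and 93.29, and the other, 62.72 kb downstream in its own intron, scored 45.78 and 42.57 and had the AP-1 match printed above. The integrin genes ITGA2, ITGA5, ITGB4 and ITGB8, which encode matrix receptor subunits, had 1 each. The other integrin genes of the list had none within 100 kb of their TSS. That of ITGA2, 45.38 kb upstream, scored 49.42 and 42.16 and lay in an intron of ITGA1, another gene of the list. The closest, 13.573 kb upstream of ITGB4, scored 73.62 and 74.08 and had a grainyhead match, and that of ITGB8 lay at 99.911 kb, just within the distance used. LAMB3, which encodes a chain of a basement membrane laminin, had one 75.052 kb downstream, with scores of 54.26 and 83.81.

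Feedback inhibitors and early targets of RAS and ERK signalling came next. Of 22 genes, 6 (27.3%) had a distal gained, 2 a lost and 6 a shared region, and 9 of 123 nearby distal regions (7.32%, interval 3.90 to 13.3%) were gained. These genes had a median of 5 distal regions nearby, against 3 for all protein-coding genes. Of all protein-coding genes with 5 to 9 distal regions, 20.9% had a gained one. DUSP5, a nuclear ERK phosphatase, had 3 among 12 distal regions, with 1 shared and 0 lost. They lay 86.737 kb upstream, with scores of 51.93 and 96.59 and an AP-1 match, 14.681 kb downstream, with 54.63 and 110.74, and 32.024 kb downstream, with 61.7 and 167.89 and a TEAD match. DUSP1, another phosphatase of the MAP kinases, had 2 among 15, beside 1 lost and 4 shared regions. One lay 24.111 kb upstream, with scores of 47.31 and 82.14 and an AP-1 match, and the other 29.928 kb downstream, with 70.88 and 129.68. SPRY1 and SPRED2, inhibitors of RAS signalling, had 1 each, with scores of 71.09 and 113.11 and of 74.76 and 55.83. The region of EGR1, an immediate early transcription factor, lay 15 kb upstream with a CTCF match and scores of 43.68 and 53.03, and that of EGR3 lay 95.451 kb downstream with an AP-1 match.

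**Figure D3:**
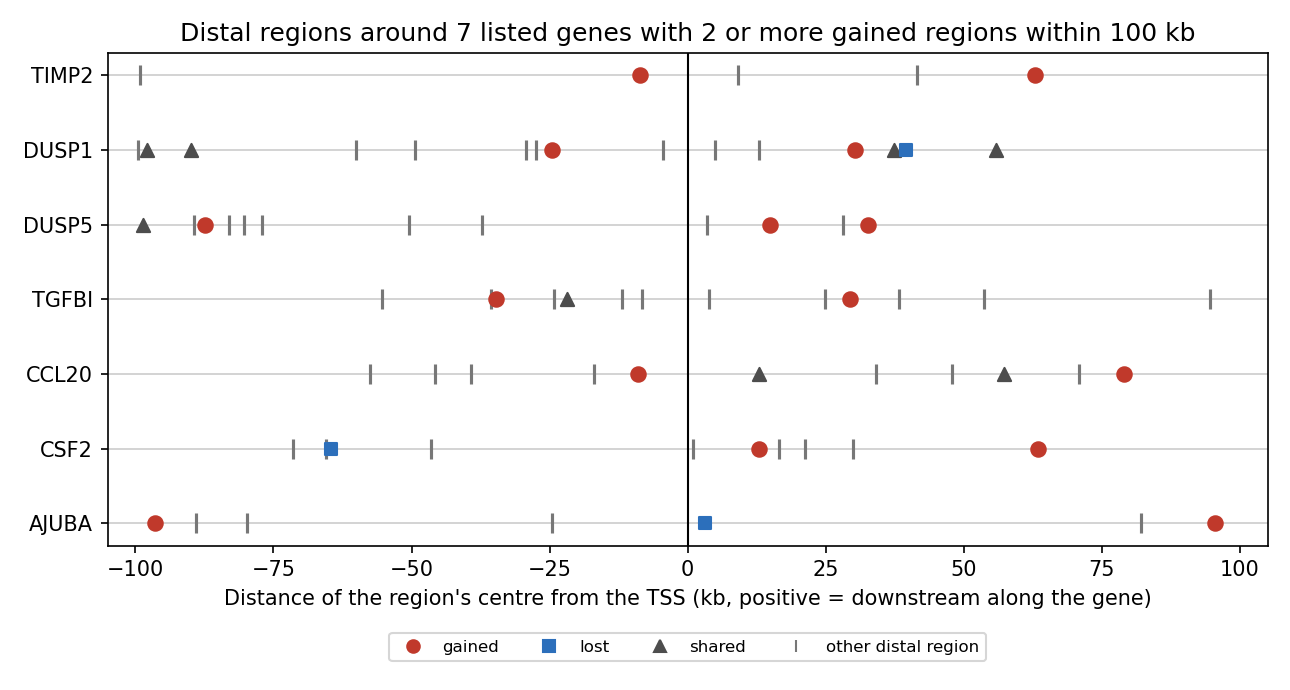
Position of every distal region within 100 kb of the TSS of 7 listed genes with at least 2 distal gained regions, in kb from the TSS along the gene, with symbols for gained, lost, shared and other distal regions. DUSP5 has 3 gained regions, and TIMP2 has 2 gained regions among 5.

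The epithelial identity list stood at the other end. Of its 30 genes, which hold cadherins, keratins, desmosome proteins and epithelial transcription factors, 1 had a distal gained region (3.33%) while 6 had a lost and 3 a shared region. That gene was GRHL2, a grainyhead-like factor, with a region 41.593 kb upstream that scored 55.28 and 78.94. For comparison, 10.3% of all protein-coding genes had a gained, 7.03% a lost and 12.7% a shared region. Of 134 nearby distal regions, 1 was gained (0.746%, Wilson interval 0.132 to 4.11%) and 5 were lost (3.73%). The interval of the gained share held the 3.43% near any protein-coding gene, where 2.26% were lost. Among 26 genes of epithelial-mesenchymal transition, 4 had a gained, 2 a lost and 8 a shared region. FN1, which encodes the matrix protein fibronectin, had one 24.774 kb downstream in its own intron with an AP-1 match and scores of 58.68 and 120.63, beside 1 lost and 1 shared region. TGFBI had 2, one of them the high-ranked intronic region given earlier, and the receptor genes TGFBR1 and TGFBR3 had 1 each.

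The other lists lay between these. Gained regions were near 4 of 18 genes of the YAP and TEAD pathway, which responds to cell contact and stretch. CCN2, a secreted target gene of that pathway, had one 2.996 kb upstream, at chr6:132275508-132276575, with scores of 69.39 and 86.89 and both an AP-1 and a TEAD match, and AXL, a receptor tyrosine kinase, had one in its own intron with an AP-1 match. Among 15 genes of the EGF receptor family and its ligands 3 had a gained region, namely EGFR in its intron with a CTCF match (42.18 and 68.9), and the ligand genes HBEGF (53.96 and 190.16) and BTC (62.76 and 92.1), and HBEGF also had 1 lost region nearby. Of 20 cytokine and chemokine genes, CCL20 and CSF2 had 2 regions each, those of CSF2 scoring 41.2 and 65.44 in G12V replicate 1 and 200.13 and 179.5 in replicate 2, beside 1 lost region near CSF2. In the AP-1 subunit list 3 of 14 genes had one, but ATF3 and BATF3 shared the same region (86.96 and 154.97), and the third was MAFG. ETS factors had 2 of 20 (ELF4 and ELK1, the latter through the region of TIMP1). Axon guidance genes had 5 of 30 (EPHA2, EPHA4, PLXNA2, SEMA5A and UNC5C). TGF-beta and BMP genes had 4 of 24 (BMP2, ID1, SKI and SKIL), and Wnt genes had 4 of 30 (FZD1, ROR1, WNT7B and WNT9A). These counts were 10 to 22.2% of each list, against 10.3% of all protein-coding genes. The median number of distal regions nearby was 3.5 to 5 per gene in these lists, against 3 for all protein-coding genes.

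CTCF matches set distal gained regions apart from lost ones. They were found in 146 windows (8.59%, interval 7.35 to 10.02%), 43 of them without a mismatch and 103 with 1, against 2.70% of lost, 4.14% of shared, 6.24% of crossed and 5.91% of all distal regions. The difference was 5.88 points from lost regions (interval 4.23 to 7.51) and 4.45 points from shared regions (2.93 to 6.05). Against crossed regions it was 2.35 points, and that interval reached below 0 (-0.0349 to 4.46). The reversed CTCF pattern, a control for base composition, matched 0.647% of distal gained and 0.254% of lost regions. The CTCF difference was present in windows at or below the median GC content of 46%, with 44 of 869 distal gained and 0 of 511 lost regions (a count of 0 that allows up to 0.587%), and above it, with 102 of 831 and 32 of 672. It shrank to 1.73 points (interval 0.193 to 3.31) when every list was cut to its 12888 best peaks. Without MCF10A replicate 2 it was 1.91 points.

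Per library, CTCF matches occurred in 4.21 and 4.61% of distal peaks in MCF10A and in 6.04 and 6.35% in G12V, replicate 1 first. Both G12V values were higher, by 1.78 points in the mean (exact two-sided permutation test, p = 0.333, the smallest p possible here). At equal list sizes the 4 values were 4.21, 3.22, 5.84 and 3.66%, so that the cell types overlapped, although G12V was still higher within each replicate number.

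AP-1, with the letters TGAGTCA, was the most common motif and did not differ detectably between distal gained and lost regions. It was found in 295 windows (17.4%, interval 15.6 to 19.2%), against 19.4% of lost, 20.1% of shared, 20% of crossed and 18.6% of all distal regions. The difference from lost regions was -2.09 points (interval -5.01 to 0.766) and that from shared regions -2.77 (-5.16 to -0.335). The reversed pattern matched 3.59% of distal gained regions. The direction of the gained minus lost difference depended on the lists used, being 6.12 points without MCF10A replicate 2 and -10.5 points without G12V replicate 2. Per library, AP-1 matches occurred in 19.4 and 21.2% of distal peaks in MCF10A and 18.1 and 19.8% in G12V, a difference of -1.33 points in the means that was within the spread between replicates (p = 0.667 in the same exact test).

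The E-box read by ZEB and SNAI repressors, CACCTG, which other E-box proteins also bind, was less common in distal gained than in lost regions. It was found in 8.06% of windows (interval 6.86 to 9.45%), against 17.9% of lost, 11.8% of crossed, 9.37% of shared and 11.4% of all distal regions. The difference from lost regions was -9.86 points (interval -12.4 to -7.36) and that from crossed regions -3.71 points (-6.57 to -1.13). From shared regions it was -1.31 points, with an interval that held 0 (-3.04 to 0.462). The reversed letters matched 5.41% of distal gained and 5.16% of lost regions. In windows without a p53 or CTCF match, the shares were 7.12 and 18.0%. Of the 27 distal gained regions with both an E-box and a CTCF match, the matches overlapped in 18. Per library, the E-box occurred in 13.95 and 12.2% of distal peaks in MCF10A and in 9.89 and 9.83% in G12V (difference of the means -3.21 points, exact two-sided permutation test, p = 0.333). Without G12V replicate 2 the gained minus lost difference was -4.04 points. This motif was singled out after its values had been seen.

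Matches to the p53 motif, which the tumour suppressor p53 and its relatives p63 and p73 bind, were found in 9 distal gained regions (0.529%), 0 of them with fewer than 2 mismatches. The share was 7.44% in lost, 0.993% in crossed and 1.26% in shared regions, and the difference from lost regions was -6.91 points (interval -8.57 to -5.47). The letters GCCNNNGGC of the TFAP2 family, epithelial factors of the mammary gland, were found in 5.29%, against 8.37% of shared, 8.20% of lost, 7.94% of crossed and 5.76% of all distal regions, the last within the interval of the gained share (4.33 to 6.46%). The difference from lost regions was -2.91 points (interval -4.86 to -1.06), but in windows at or below the median GC content it was -1.37 points with an interval that held 0 (-3.44 to 0.323).

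The other motifs differed little from lost regions. C/EBP (TTGCNNAA) was found in 12% of distal gained and 12.3% of lost regions, against 10.01% of all distal regions. RUNX (AACCACA) was found in 4.76 and 5.49%, TEAD (ACATTCC) in 4.29 and 4.06%, FOX (TGTTTAC) in 3.18 and 2.96%, and SOX (ACAATGG) in 2.47 and 2.28%. All distal regions had 4.32, 3.74, 2.50 and 2.13% in the same order. Grainyhead (AACNGGTT) was found in 24 distal gained regions (1.41%), against 0.845% of lost, 0.669% of shared, 0.426% of crossed and 0.916% of all distal regions. Its difference was 0.986 points from crossed (interval 0.0471 to 1.72) and 0.742 points from shared regions (0.122 to 1.47), but the reversed letters matched more windows (2.35%). POU (ATTTGCAT) was found in 1.59%, against 0.761% of lost, 0.753% of shared and 1.03% of all distal regions, with an interval of the difference from lost regions of -0.0123 to 1.63 points. ETS (CCGGAAGT) and CRE (TGACGTCA) matches were found in only 3 and 2 distal gained regions, against 0.220 and 0.169% of all distal regions. The reversed letters matched more, in 8 and 10 distal gained regions, so these counts say little about ETS or CRE sites. Of the 14 motifs, 4 had an interval of the gained minus lost difference without 0, and 878 distal gained regions had at least 1 motif in their window. The windows of the other 822 (48.4%) had none, as did those of 47.96% of all distal regions. Over whole regions, AP-1 was found in 41.9% of distal gained and 42.6% of lost regions, and CTCF in 23.4 and 9.89%.

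**Figure D4:**
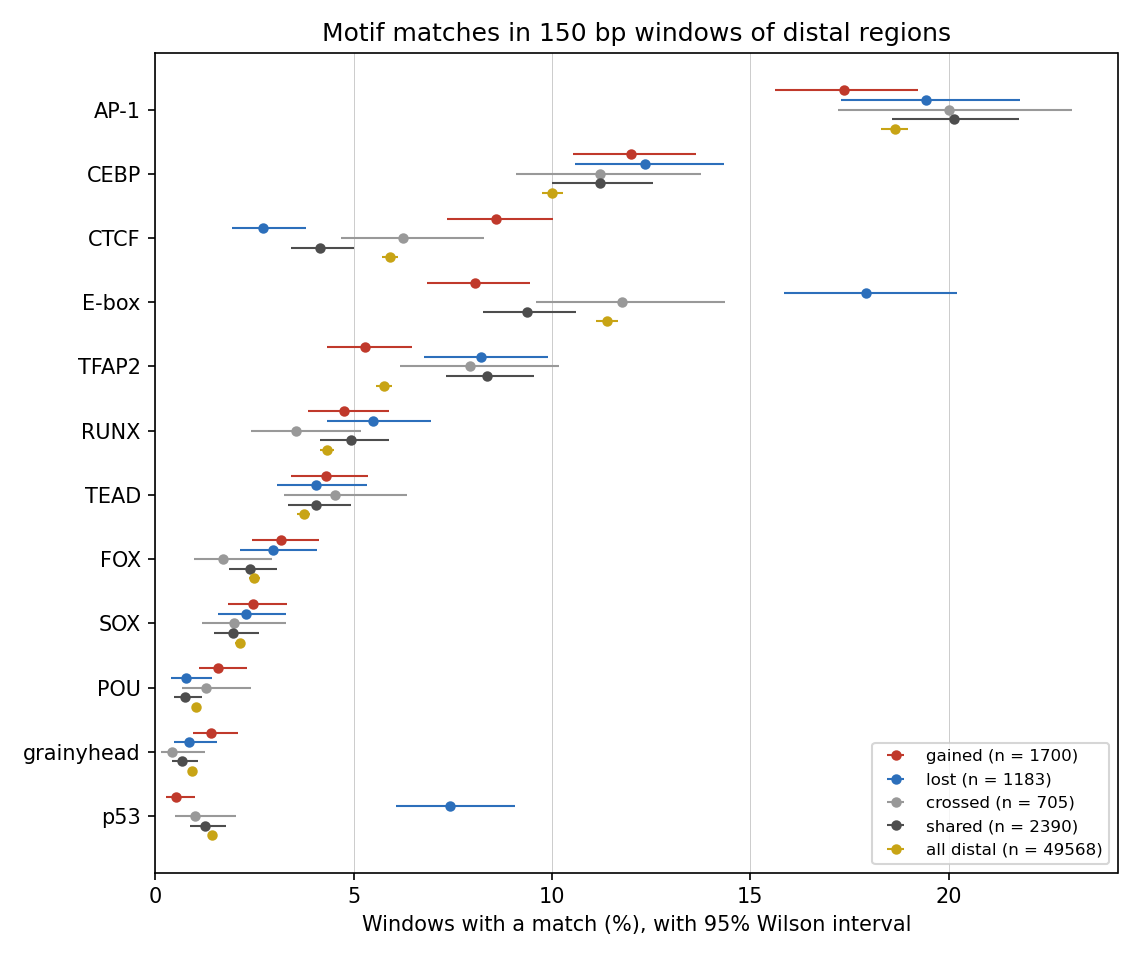
Percent of 150 bp windows with a motif match (12 of the 14 motifs) in distal gained, lost, crossed, shared and all distal regions, with 95% Wilson intervals. CTCF is highest in gained regions (8.59%), and the E-box and p53 motifs are highest in lost regions (17.9 and 7.44%).

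Motif content also varied among the distal gained regions. In the 404 with scores at or above the median of both G12V lists, C/EBP matches were found in 17.6% (interval 14.2 to 21.6%), against 10.3% (8.73 to 12.03%) of the other 1296. CTCF went the other way, with 6.44% (4.43 to 9.26%) and 9.26% (7.799 to 10.96%), and AP-1 stood at 19.6% (15.98 to 23.7%) and 16.7% (14.7 to 18.8%), both with overlapping intervals. The intron share was 57.4 and 58.4%. By distance, AP-1 was found in 17.8% within 10 kb of a TSS, 16.8% from 10 to 100 kb and 18.9% beyond 100 kb, and TEAD in 2.92, 3.98 and 6.95%, with intervals that overlapped (1.60 to 5.30% within 10 kb and 4.59 to 10.4% beyond 100 kb). AP-1 and TEAD matches occurred together in 14 regions, that of CCN2 among them.

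How far distal gained regions lay beside one another depended on the lists used. Of the 3399 neighbouring distal regions to either side of them, 138 were also gained (4.06%, interval 3.45 to 4.78%), just above the 3.43% of all distal regions. Within 50 kb it was 3.90%. At equal list sizes the neighbour share was 9.26% (interval 8.12 to 10.5%) against 5.85% of all distal regions, and without G12V replicate 1 it was 48.3% against 43.8%. Lost regions had a lost neighbour in 5.07% of cases against a background of 2.39%, and shared regions a shared one in 8.54% against 4.82%. Linking regions up to 50 kb apart put 207 distal gained regions (12.2%) into 97 chains, 12 of which had at least 3 members. The share in chains was 13.4% for lost, 6.52% for crossed and 24.8% for shared regions, which differ in number. The chain with the most members held 4 upstream of ZHX2 on chromosome 8, in introns of a lncRNA gene over 80.235 kb, with scores of 48.71 to 66.63 in G12V replicate 1 and 48.12 to 186.22 in replicate 2. Of the chains of 3, the 7 most compact were looked at. One lay in SASH1, a signalling scaffold gene, where scores of 47.27 to 53.21 in replicate 1 stood against 119.49 to 229.06 in replicate 2. The first region of the SASH1 chain, chr6:148663412-148664610, lay in an exon, with a window GC content of 72.7%. Whether it marks a start site inside SASH1 was not tested. Other chains lay in PDE6A and PPARGC1B, in and beside ACO1, in SORBS2, between RGS13 and RGS2, between IRX1 and ADAMTS16, and far from CHRM3. None of these 8 chains held a lost region. They held only 3 to 10 distal regions each, members included, and 2.39% of all distal regions were lost, so this count says little.

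On the scale of chromosomes the distal gained regions were uneven. They made up between 1.56% of distal regions on chromosome 16 (17 regions, interval 0.978 to 2.49%) and 5% on chromosome X (94 regions, 4.10 to 6.08%). Chromosome 17 had 47 gained and 9 lost distal regions, chromosome 9 had 86 and 37 and chromosome X 94 and 34, while chromosome 18 had 19 and 30 and chromosome 16 had 17 and 34. In windows of 10 Mb, of which 292 held at least 50 distal regions, the median was 5 gained regions and the highest 26, on chromosome 2 from 230 to 240 Mb. Chromosome 17 from 70 to 80 Mb, which holds TIMP2, ITGB4 and 5 of the SOX9 regions, had 23 gained regions of 226 (10.2%) and 0 lost. Chromosome 9 from 0 to 10 and from 10 to 20 Mb had 18 gained regions each, with 2 and 1 lost. DNA copy number was not measured in these lists, and its part in such differences was not tested.

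**Figure D5:**
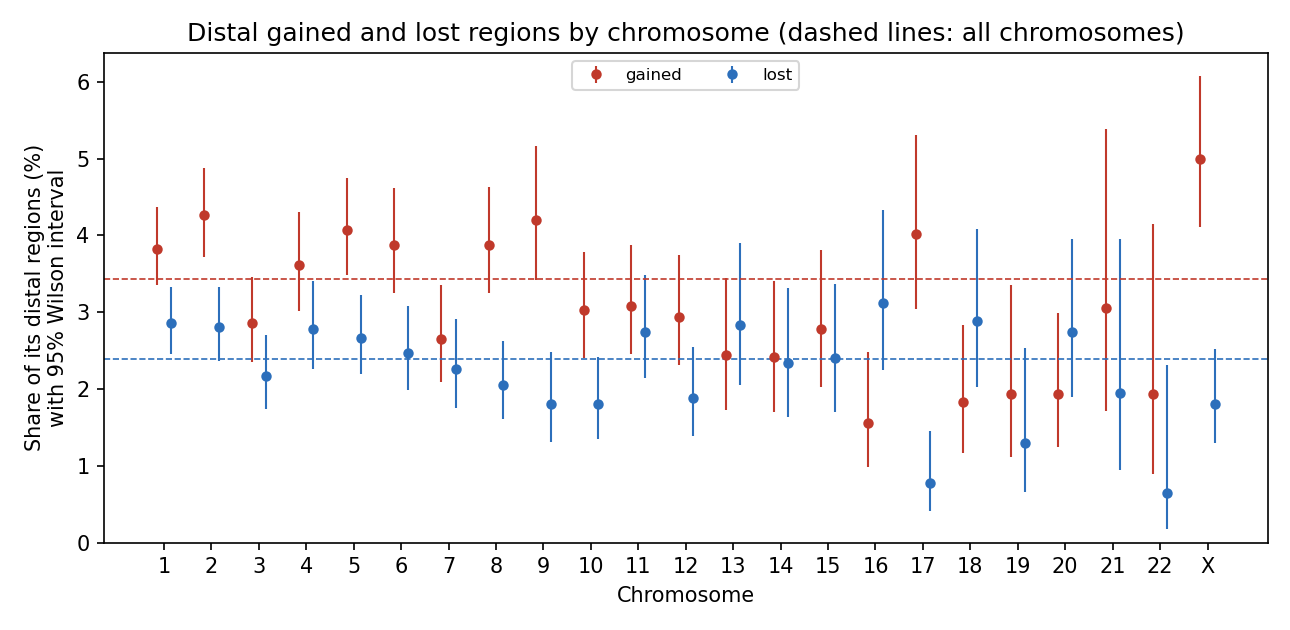
Percent of the distal regions of each chromosome that were gained (red) or lost (blue), with 95% Wilson intervals and dashed lines for all chromosomes (3.43 and 2.39%). On chromosome 17, 4.02% of distal regions were gained and 0.770% lost, while the lost share exceeded the gained share on chromosomes 13, 16, 18 and 20.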

How the data were processed

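ATAC-seq peak lists of 2 MCF10A and 2 G12V libraries were used. Per the study's methods, the authors aligned reads to hg19 with Bowtie, kept reads with 1 position, shifted them onto the middle of the site cut by the transposase, which suits this assay, and ran MACS (tag size 51, no model, shift size 75, local window 25000 bp, p threshold 0.0001). The study pooled replicates for its own differential calls, whereas the lists used here are per library. Each deposited peak has a score from the caller, namely −10 × log10 of its p-value. Because this score grows with depth, it entered as a percentile of its own list.

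Regions, classes and the promoter window were as defined in the report. Genes were from GENCODE release 44 mapped to GRCh37 (20098 protein-coding and 18592 lncRNA genes on chromosomes 1 to 22 and X), and 0 peaks ended past a chromosome end. Peaks on Y (14 to 25 per list) were left out. Motifs were sought on both strands in 150 bp windows, CTCF with up to 1 mismatch and p53 with up to 3 outside its core C and G, and matches of different motifs may overlap. As the control, each pattern was reversed but not complemented. Distances to genes were measured from the nearest edge of a region to the gene's TSS, taken as its outermost annotated start.

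Per-library shares were compared by exact permutation tests, which with 2 libraries against 2 cannot go below 0.333. Shares of regions have 95% Wilson intervals and their differences 95% Newcombe intervals. Named were the 10 regions highest by the lower of both percentiles, the 8 chains with most members (ties by shorter span), the 15 protein-coding genes nearest to most regions, and genes of 12 lists with a region within 100 kb. Sequences were taken for the best-ranked region outside chromosome 8 with a given motif. The window in TIMP2 was added after its values were seen. Counts of the matrix list cover all its genes, but 1 gene is not reported here by itself. The members, lists and motifs were chosen with earlier results of these data known. Of the cell type markers, 1 endothelial gene found no match in the annotation. Alternatives included other list sizes, overlaps, TSS sets and motif settings, leaving out each library, and a replicate block. Merging, classes, motif scans and intervals were tested on simulated data. Computations used Python 3.11.15, numpy 2.4.6, pandas 2.3.3, pysam 0.24.0 and matplotlib 3.10.9.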

Additional observations from a re-analysis of the deposited data

How the results depend on the processing

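The number of distal gained regions was 875 with the better-scoring 50% of each list, 1103 at equal list sizes (12888 best peaks each), and 1876 to 20963 when 1 library was left out. With the replicate number as a block it was 6557 in pair 1 alone, 21689 in pair 2 alone and 14123 as their mean, because each pair then needs a single list per cell type. Of the 1700 regions, 404 were still gained with the better-scoring 50% and 425 at equal list sizes.

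The CTCF difference between distal gained and lost regions stayed positive under every alternative run with the CTCF pattern itself. It was 3.77 points with the better-scoring 50%, 1.73 at equal list sizes and 1.91 to 4.84 without 1 library. In the replicate block pairs 1 and 2 it was 2.79 and 3.33 (mean 3.06). It was 13.5 over whole regions, 2.19 with 0 mismatches and 7.51 in windows above the median GC content (46%), the last chosen after the data were seen. The reversed pattern, which is the control, gave 0.393 points with an interval that held 0 (-0.173 to 0.928). The AP-1 difference ranged from -10.5 to 6.12 points without 1 library, and the intron difference moved within its interval throughout. The neighbour share was 4.93% with the better-scoring 50%, 9.26% at equal sizes, 4.69 to 48.3% without 1 library, and 46.8, 51.03 and 48.9% in pair 1, pair 2 and their mean. The share of all distal regions that were gained rose with it, to 3.98, 5.85, 3.90 to 43.8, 43.8 and 46.9%.

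The intron difference per library ranged from -0.0970 to 0.899 points without 1 library, below 0 without MCF10A replicate 1. For AP-1 and CTCF per library no setting changed the direction, and the replicate block gave p = 0.5, the smallest the exact sign-flip test allows for 2 pairs. Same-numbered libraries share only a number in the labels. The E-box difference and the matrix list count, both alternatives chosen after the data were seen, were -4.04 to -10.3 points and 16 to 27 genes without 1 library, and 5 and 7 genes with the better-scoring 50% and at equal sizes. Sequencing depth is unknown here, and absence from the shorter replicate 1 lists limits every class.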
